A study of Mus musculus with 12 samples.

Results

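The genes described here are the 10 SR splicing factor genes Srsf1, Srsf2, Srsf3, Srsf4, Srsf5, Srsf6, Srsf7, Srsf9, Srsf10 and Srsf11. They were taken by symbol from the deposited table of gene expression, where they fill 11 of 40481 gene rows, since Srsf1 is listed under 2 gene IDs. The second Srsf1 entry (ENSMUSG00000098301) had 0 reads in every library and is not considered further. The other 10 rows all passed the filter on low values. The set was chosen because the level of Srsf2 was lower with the ETV6-RUNX1 fusion in both sources of cells, so the differences between genotypes are given below as a description. Members past the threshold there are counted once, beside the share of all genes past it, and nothing is read from those counts.

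SR proteins are RNA-binding proteins with a domain rich in arginine and serine. They bind exons, help U1 and U2 particles to recognise splice sites, and several of them also accompany mRNA out of the nucleus. Kinases of the SRPK and CLK families phosphorylate the arginine-serine domain, and many SR genes limit their own level through alternative exons that send the transcript to nonsense-mediated decay. In blood cells SRSF2 is known for recurrent point mutations in myelodysplastic syndromes and related leukaemias.

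RNA was sequenced from mouse hematopoietic stem cells (HSCs) in 12 libraries, 3 in each of 4 groups. Cells of each genotype, wild type (WT) or iE/R, which carries ETV6-RUNX1, were taken from the bone marrow of mice aged 8 weeks or from the fetal liver at E14.5. ETV6-RUNX1 joins a pair of transcription factor genes and occurs in childhood B-cell leukaemia. All 4 groups, WT included, were grown for 3 days under conditions for HSC expansion with 1 µg/mL doxycycline. The driver of the fusion gene, the number of animals behind a library and the sex of the animals are not given in the sources used here, so p-values measure only the spread between these libraries, which may be technical.

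Library totals lay between 32.3 and 64.5 M reads, so that 3 reads, the smallest count taken as told from 0, equalled 0.0465 to 0.0928 CPM (counts scaled to the library total). All 12 HSC and progenitor markers had a median of at least 1 CPM, and the T-cell and B-cell markers were under 1 CPM in every library. Summed levels of the HSC markers were higher with the fusion, without overlap, at 2086 to 2900 CPM in WT and 3046 to 3333 in ETV6-RUNX1 bone marrow and 1889 to 2288 and 4172 to 4300 CPM in fetal liver. Within them Cd48 was lower, with means of 167 and 40.1 CPM in bone marrow and 183 and 21.5 CPM in fetal liver. Flt3 was lower as well, at 5.74 and 2.31 CPM in bone marrow and 22.8 and 5.99 CPM in fetal liver. In bone marrow the means of Kit (361.5 and 318 CPM) and Slamf1 (74.0 and 66.1 CPM) were also lower. Ly6a had the largest rise in CPM, from 90.5 to 504 in bone marrow and from 19.1 to 880 in fetal liver. The erythroid markers summed to 197 to 457 CPM in WT and 367 to 569 in ETV6-RUNX1 bone marrow, which overlapped, and to 649 to 909 and 1241 to 1965 CPM in fetal liver. Nearly all of that sum was Hbb-bt, a globin gene, whereas Klf1 was lower in ETV6-RUNX1 fetal liver (means of 0.654 CPM in WT and 0.175). The mature myeloid markers summed to 2.57 to 51.2 CPM in WT and 18.9 to 31.0 in ETV6-RUNX1 bone marrow and to 3.33 to 5.30 and 17.5 to 21.5 CPM in fetal liver. The top of the WT bone marrow range came from S100a8, with a mean of 20.5 CPM there and at most 0.143 in the other groups. Itgam was higher with the fusion, with means of 3.25 and 22.2 CPM in bone marrow and 4.33 and 18.4 CPM in fetal liver. Of the hepatocyte markers, Afp was 13.0 to 36.5 CPM over the libraries and Alb was under 1 CPM in each. The stroma markers Col1a1 and Col3a1 were also under 1 CPM. The means of Cdh5, an endothelial marker, were 0.516 and 0.187 CPM in bone marrow and 6.36 and 15.5 CPM in fetal liver. Those of Pdgfrb were 9.51 and 6.79 CPM in bone marrow and 5.38 and 0.229 CPM in fetal liver. The part of these marker differences in the results below was not tested. Processed pseudogenes took 1.33% to 2.06% of the reads in ETV6-RUNX1 fetal liver and 1.72% to 2.74% in the other libraries. Xist was 0.175 to 1.27 CPM in bone marrow and 51.7 to 89.3 CPM in fetal liver. Source thus cannot be told apart from the sex makeup of the animals. Among Y-chromosome genes, Ddx3y in fetal liver was 23.5 to 41.5 CPM in WT and 69.1 to 75.2 CPM in ETV6-RUNX1. Eif2s3y was 25.97 to 47.91 and 66.35 to 87.69 CPM there, and Uty and Kdm5d did not overlap either. In bone marrow all of these overlapped between genotypes, as did Xist in both sources. The part of sex makeup in the fetal liver genotype differences was not tested. Runx1 reads, which include any from the fusion, were 143 to 244 CPM in the ETV6-RUNX1 libraries and 86.7 to 136 CPM in the WT libraries.

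The DNA before the start of a gene is shown for 3 members that differ in their levels. Srsf2 had the largest difference between genotypes, and Srsf5 and Srsf6 were among the members whose level was not lower in ETV6-RUNX1 cells. Each run is read on the gene's strand from 5′ to 3′, ends at the base before the transcript start in the RefSeq table of build GRCm38.p6, and holds no exon. Capitals mark, on either strand, TGTGGT or TGCGGT (forms of the core that RUNX proteins bind), CCGGAA (the core of ETS proteins, the family of ETV6), CCAAT and TGACG. The Srsf2 run lies at chr11:116853095-116853294 on the minus strand, inside introns of Mettl23 and Mfsd11, which are transcribed the other way. The Srsf5 run lies at chr12:80945397-80945498 and the Srsf6 run at chr2:162931258-162931507, both on the plus strand.
Srsf2: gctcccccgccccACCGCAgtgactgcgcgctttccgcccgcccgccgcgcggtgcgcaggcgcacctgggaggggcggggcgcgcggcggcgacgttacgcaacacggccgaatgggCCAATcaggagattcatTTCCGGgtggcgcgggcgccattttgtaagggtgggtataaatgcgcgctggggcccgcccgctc
Srsf5: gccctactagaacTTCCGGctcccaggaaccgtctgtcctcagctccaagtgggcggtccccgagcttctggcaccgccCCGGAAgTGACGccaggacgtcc
Srsf6: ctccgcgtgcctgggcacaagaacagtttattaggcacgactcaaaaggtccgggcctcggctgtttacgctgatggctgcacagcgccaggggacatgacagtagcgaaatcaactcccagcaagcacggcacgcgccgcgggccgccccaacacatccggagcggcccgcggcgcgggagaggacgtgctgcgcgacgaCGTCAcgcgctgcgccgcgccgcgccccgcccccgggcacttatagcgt

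The Srsf2 run of 200 bases held 1 TGCGGT, 1 CCAAT and 1 CCGGAA, and 72.5% of its bases were G or C. In Srsf5 the 102 bases shown held CCGGAA at 2 places and TGACG once. The Srsf6 run of 250 bases held TGACG and none of the other motifs in capitals. Across the 250 bases before the start, all 10 members could be matched to the promoter table, and TGTGGT was in none of them against 14.05% of all 32851 windows. TGCGGT was in 2 members (Srsf1 and Srsf2) against 5.10% of all windows. CCGGAA was in 6 members (Srsf1, Srsf2, Srsf4, Srsf5, Srsf7 and Srsf11) against 12.0%, and TGACG in 6 (Srsf1, Srsf3, Srsf5, Srsf6, Srsf10 and Srsf11) against 17.8%. CCAAT was in 3 members (Srsf2, Srsf3 and Srsf10) against 33.85%. Of the motifs not in capitals, the GC box GGGCGG was in every member but Srsf3 against 32.7%, and the E-box CACGTG was in 0 members against 6.02%. The 10 members had 13 windows, and a member was counted where any of its windows held the motif, while the percentages are per window. A match describes letters only.

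Srsf2 (ENSMUSG00000034120, chr11:116849901-116853094, minus strand, GRCm38), known as SC35, is a core SR protein that activates exons. Its level was 195, 376 and 347 CPM in WT bone marrow and 53.9, 67.3 and 51.5 CPM in ETV6-RUNX1 bone marrow. In fetal liver it was 223, 272 and 169 CPM in WT and 48.2, 52.7 and 62.0 CPM in ETV6-RUNX1. Each ETV6-RUNX1 library lay below each WT library, also across sources, and the WT libraries varied more among themselves. As means, 306 ± 96.8 CPM (SD, n = 3) stood beside 57.6 ± 8.54 in bone marrow and 221 ± 51.6 beside 54.3 ± 7.01 in fetal liver. The WT level was thus 5.31 times the ETV6-RUNX1 level in bone marrow and 4.07 times in fetal liver. On the log2(CPM + 1) scale the difference, ETV6-RUNX1 minus WT, was -2.34 ± 0.23 (SE) in bone marrow and -1.99 ± 0.23 in fetal liver. Among the 14271 genes tested, that difference was the 7th from the lowest in bone marrow and the 41st in fetal liver.

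What the choice of the set did not use is whether Srsf2 differed between sources. It was lower in WT fetal liver than in WT bone marrow by 0.44 ± 0.23 on the log2 scale, which did not pass the threshold (limma adjusted p = 0.257), and the libraries overlapped. Without WT bone marrow replicate 1, the lowest WT bone marrow library, the difference was -0.73 and passed (adjusted p = 0.0161). Among ETV6-RUNX1 cells the levels of Srsf2 in the sources differed by -0.08 ± 0.23 (limma adjusted p = 0.825, 95% interval -0.57 to 0.41). The genotype difference in fetal liver minus that in bone marrow was 0.36 ± 0.33, given without a test since both differences were used in the choice of the set.

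**Figure D1:**
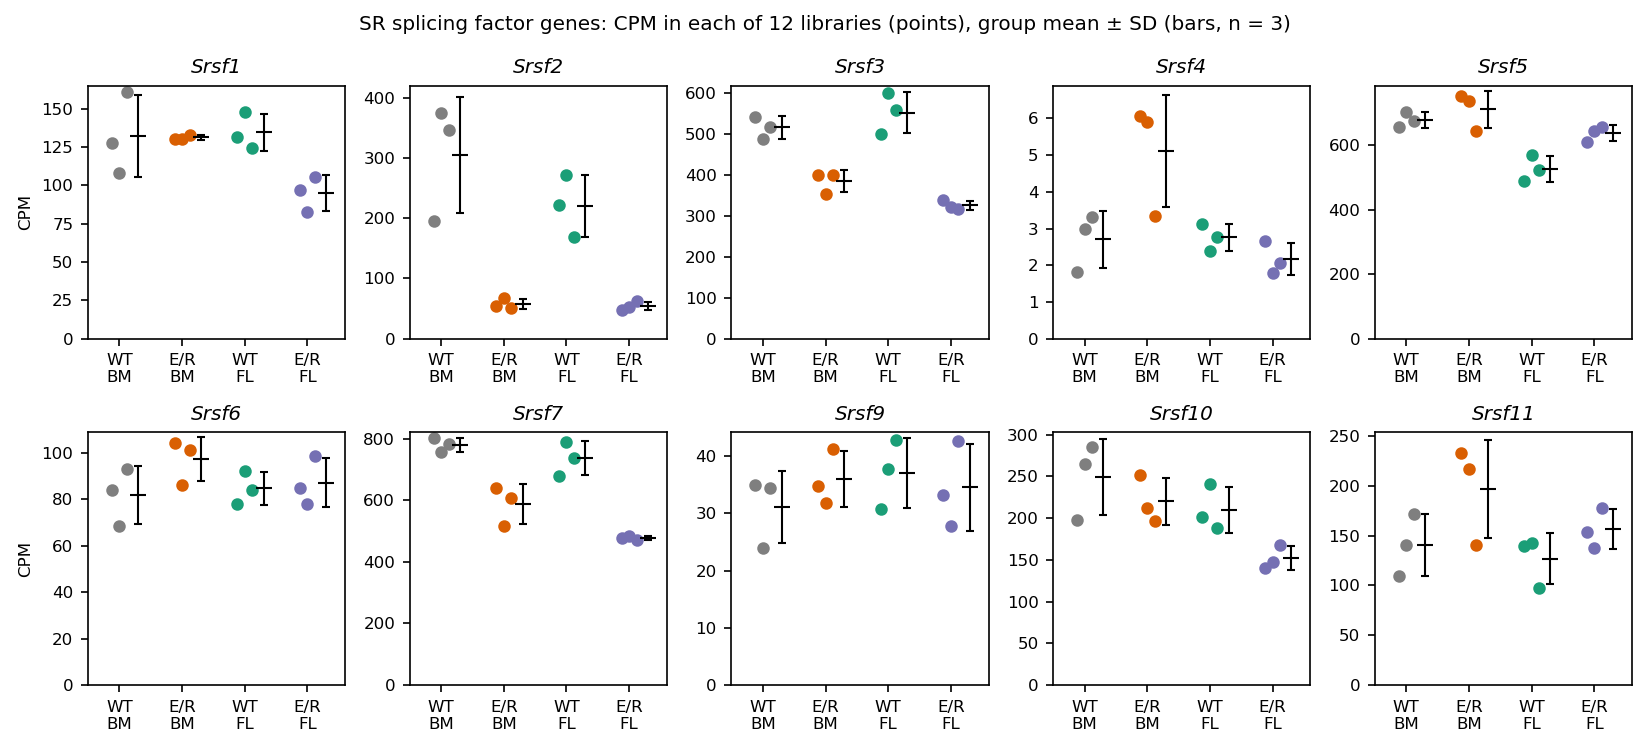
Level of each SR gene in CPM (vertical axes start at 0 and differ between panels) in WT and ETV6-RUNX1 (E/R) HSCs from bone marrow (BM) and fetal liver (FL). Points are libraries and bars are the group mean ± SD (n = 3). In the Srsf2 panel all 6 E/R libraries, at 48.2 to 67.3 CPM, sit well below all 6 WT libraries, at 169 to 376 CPM. The E/R libraries also lie below all WT libraries for Srsf3 and Srsf7, by smaller ratios.

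Srsf3 and Srsf7 are small SR proteins that also act as adaptors of the export factor NXF1. Srsf3 (ENSMUSG00000071172, chr17:29032628-29043373) was 542, 488 and 518 CPM in WT and 400.2, 353 and 399 CPM in ETV6-RUNX1 bone marrow. In fetal liver it was 499, 599.9 and 557 CPM in WT and 338, 322 and 317 CPM in ETV6-RUNX1. The genotypes did not overlap in either source, and the log2 difference was -0.43 ± 0.11 (SE) in bone marrow and -0.76 ± 0.11 in fetal liver. Srsf7 (ENSMUSG00000024097, chr17:80200080-80207307, minus strand) was 802, 756 and 785 CPM in WT and 642, 517 and 608 CPM in ETV6-RUNX1 bone marrow. Its fetal liver levels were 679.8, 790.2 and 739 CPM in WT and 478, 485 and 472 CPM in ETV6-RUNX1. Here too no ETV6-RUNX1 library reached the WT libraries of its source, with log2 differences of -0.41 ± 0.12 and -0.62 ± 0.12. For both genes, as for Srsf2, each ETV6-RUNX1 library lay below each WT library also across sources.

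Among ETV6-RUNX1 cells, all 3 fetal liver libraries lay below all 3 bone marrow libraries for both Srsf3 and Srsf7, but neither difference passed the threshold. It was -0.23 ± 0.11 for Srsf3 (limma adjusted p = 0.138) and -0.29 ± 0.12 for Srsf7 (adjusted p = 0.0708). Without ETV6-RUNX1 bone marrow replicate 2, the Srsf7 difference was -0.39 and passed (limma adjusted p = 0.0319). Under quantile normalization both passed, at -0.32 for Srsf3 (adjusted p = 0.0386) and -0.44 for Srsf7 (adjusted p = 0.00671). Pseudogenes of any type with at least 90% identity over 300 bases, whose reads could be shared, summed to 7.77 to 16.6 CPM for Srsf3 and 1.19 to 5.89 CPM for Srsf7. For Srsf10, described below, they summed to 1.71 to 4.35 CPM. Gm12355, not annotated as a pseudogene, also matched Srsf3.

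Srsf1 (ENSMUSG00000018379, chr11:88047373-88053755), the founding SR protein also called SF2/ASF, helps U1 to bind the 5′ splice site. It was 128, 108 and 161 CPM in WT and 130.4, 130.2 and 133 CPM in ETV6-RUNX1 bone marrow, so the genotypes overlapped there (log2 difference 0.01 ± 0.15). In fetal liver it was 132, 148 and 124 CPM in WT and 97.2, 82.5 and 105 CPM in ETV6-RUNX1, without overlap (-0.50 ± 0.15). The level thus stood apart in 1 of the 4 groups. Between sources, Srsf1 was lower in fetal liver than in bone marrow among ETV6-RUNX1 cells by 0.47 ± 0.15 on the log2 scale (limma adjusted p = 0.0309), with no overlap. That call was lost without any 1 of the ETV6-RUNX1 bone marrow libraries (adjusted p 0.0602 to 0.0739) and without ETV6-RUNX1 fetal liver replicate 1 (0.0682) or 2 (0.123), and with scaling by median of ratios the difference was -0.29 (adjusted p = 0.178). The WT difference between sources was 0.04 ± 0.15 (limma adjusted p = 0.9), and the difference between the genotype effects was -0.51 ± 0.21 (adjusted p = 0.145).

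Srsf9 (ENSMUSG00000029538, chr5:115327177-115333080) encodes the close relative SRp30c. Its group means were 31.1 ± 6.23 CPM in WT and 36.0 ± 4.84 in ETV6-RUNX1 bone marrow, and 37.1 ± 6.09 and 34.5 ± 7.58 in fetal liver (SD, n = 3). The libraries of all 4 groups overlapped, and the tests between sources gave differences of 0.25 ± 0.20 in WT (limma adjusted p = 0.456) and -0.07 ± 0.20 in ETV6-RUNX1 cells (adjusted p = 0.82).

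Srsf4, Srsf5 and Srsf6 share a layout with paired RNA recognition motifs and a long arginine-serine tail. Srsf5 (ENSMUSG00000021134, chr12:80945504-80950507), or SRp40, was 658, 706 and 676 CPM in WT and 753, 738 and 645 CPM in ETV6-RUNX1 bone marrow. In fetal liver it was 489, 569 and 525 CPM in WT and 609, 646 and 657 CPM in ETV6-RUNX1. The genotypes overlapped in bone marrow (log2 difference 0.06 ± 0.11) and not in fetal liver, where the ETV6-RUNX1 level was the higher (0.27 ± 0.11). Among WT cells Srsf5 was lower in fetal liver than in bone marrow by 0.37 ± 0.11 (limma adjusted p = 0.0498), without overlap. The call stood just inside the threshold and held under 5 of 22 alternatives. It was lost on leaving out any 1 library other than WT bone marrow replicate 1 or ETV6-RUNX1 bone marrow replicate 3 (adjusted p 0.0576 to 0.183). A pseudogene of Srsf5 with at least 90% identity held 10.85 to 28.5 CPM.

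Srsf6 (ENSMUSG00000016921, chr2:162931528-162937121), or SRp55, had group means of 81.9 ± 12.4 CPM in WT and 97.3 ± 9.56 in ETV6-RUNX1 bone marrow, and of 84.7 ± 7.17 and 87.2 ± 10.4 in fetal liver. Its libraries overlapped in all comparisons of groups made here, and the source differences were 0.06 ± 0.15 in WT (limma adjusted p = 0.848) and -0.16 ± 0.15 in ETV6-RUNX1 cells (adjusted p = 0.449).

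Srsf4 (ENSMUSG00000028911, chr4:131873617-131901706), or SRp75, was the member with the fewest reads, 1665 over the 12 libraries. It was 1.81, 2.98 and 3.31 CPM in WT and 6.08, 5.90 and 3.34 CPM in ETV6-RUNX1 bone marrow. In fetal liver it was 3.11, 2.39 and 2.76 CPM in WT and 2.65, 1.80 and 2.07 CPM in ETV6-RUNX1. The lowest ETV6-RUNX1 bone marrow library lay only just above the highest WT library (log2 difference 0.71 ± 0.23), while the genotypes overlapped in fetal liver (-0.25 ± 0.23). Among ETV6-RUNX1 cells Srsf4 was lower in fetal liver than in bone marrow by 0.92 ± 0.23 on the log2(CPM + 1) scale (limma adjusted p = 0.00975), a call that held under all 21 alternatives in which it was tested. The difference between the genotype effects was -0.96 ± 0.33 (adjusted p = 0.0831), and it passed only without ETV6-RUNX1 bone marrow replicate 3, the low library (-1.19, adjusted p = 0.0323). Gm12992 shares 1532 exon bases with Srsf4 on the opposite strand, and whether strand was used in counting is not given in the sources used here, so reads of the pair cannot be told apart.

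Srsf10 and Srsf11 stand apart in function from the core family. Srsf10 (ENSMUSG00000028676, chr4:135855747-135869908), or SRp38, represses splicing when it is dephosphorylated. It was 198, 265 and 285 CPM in WT and 252, 212 and 197 CPM in ETV6-RUNX1 bone marrow, which overlapped (log2 difference -0.17 ± 0.16). In fetal liver it was 201, 241 and 188 CPM in WT and 141, 147 and 168 CPM in ETV6-RUNX1, which did not (-0.46 ± 0.16). Among ETV6-RUNX1 cells it was lower in fetal liver than in bone marrow by 0.53 ± 0.16 (limma adjusted p = 0.0217), with no overlap, and among WT cells the difference was -0.24 ± 0.16 (adjusted p = 0.377). The former call was lost without ETV6-RUNX1 bone marrow replicate 1 (adjusted p = 0.097) and without ETV6-RUNX1 fetal liver replicate 1 (0.0833) or 2 (0.0641), and with scaling by median of ratios it was -0.35 (0.078).

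Srsf11 (ENSMUSG00000055436, chr3:158010473-158036639, minus strand), an SR-related protein first called p54, ran the other way from Srsf2 in its means. It was 109, 140.5 and 172 CPM in WT and 233, 217 and 140.4 CPM in ETV6-RUNX1 bone marrow, and 140.0, 143 and 97.8 CPM in WT and 154, 138 and 178 CPM in ETV6-RUNX1 fetal liver. The genotypes overlapped in both sources (log2 differences 0.47 ± 0.21 and 0.31 ± 0.21). In bone marrow the overlap came from ETV6-RUNX1 replicate 3, without which the difference was 0.70. The source differences of Srsf11 were -0.14 ± 0.21 in WT (limma adjusted p = 0.723) and -0.30 ± 0.21 in ETV6-RUNX1 cells (adjusted p = 0.317).

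Counted together, 5 of the 10 members had an adjusted p under 0.05 for the genotype in fetal liver, all lower in ETV6-RUNX1 (Srsf1, Srsf2, Srsf3, Srsf7 and Srsf10), beside 43.1% of all genes tested (24.8% higher and 18.3% lower). In bone marrow 4 members did, with Srsf2, Srsf3 and Srsf7 lower and Srsf4 higher, beside 19.4% of all genes (14.4% higher and 4.93% lower). The bone marrow call of Srsf4 held under only 2 of the 21 alternatives in which it was tested, and was lost with edgeR and DESeq2. Those of Srsf2, Srsf3 and Srsf7 held under 22, 20 and 17 of 22. Because the set was chosen from these comparisons, nothing is read from the counts. The groups did not overlap for 6 members in fetal liver, beside 55.6% of genes, and for 4 in bone marrow, beside 34.5%. The median log2 difference of the members was -0.35 in fetal liver (-0.25 without Srsf2) beside 0.08 for all genes, and 0.04 in bone marrow beside 0.13. The fetal liver count was 3 without WT replicate 2 or ETV6-RUNX1 replicate 2 of that source, which removed Srsf1 and Srsf10. The bone marrow count was 2 without WT replicate 1 or 3 of bone marrow and 1 without ETV6-RUNX1 replicate 2.

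Scaling bears on the bone marrow count: with median of ratios the median of all genes moved from 0.13 to -0.001, and 4 members were higher and 6 lower in place of 6 and 4, with 0 called higher and 3 lower. Of all genes, 1432 were then called higher and 1397 lower, in place of 2059 and 704. In fetal liver quantile normalization moved the median of all genes from 0.08 to -0.10, with 2717 genes called higher and 3746 lower in place of 3544 and 2607. The same 5 members were called lower there.

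**Figure D2:**
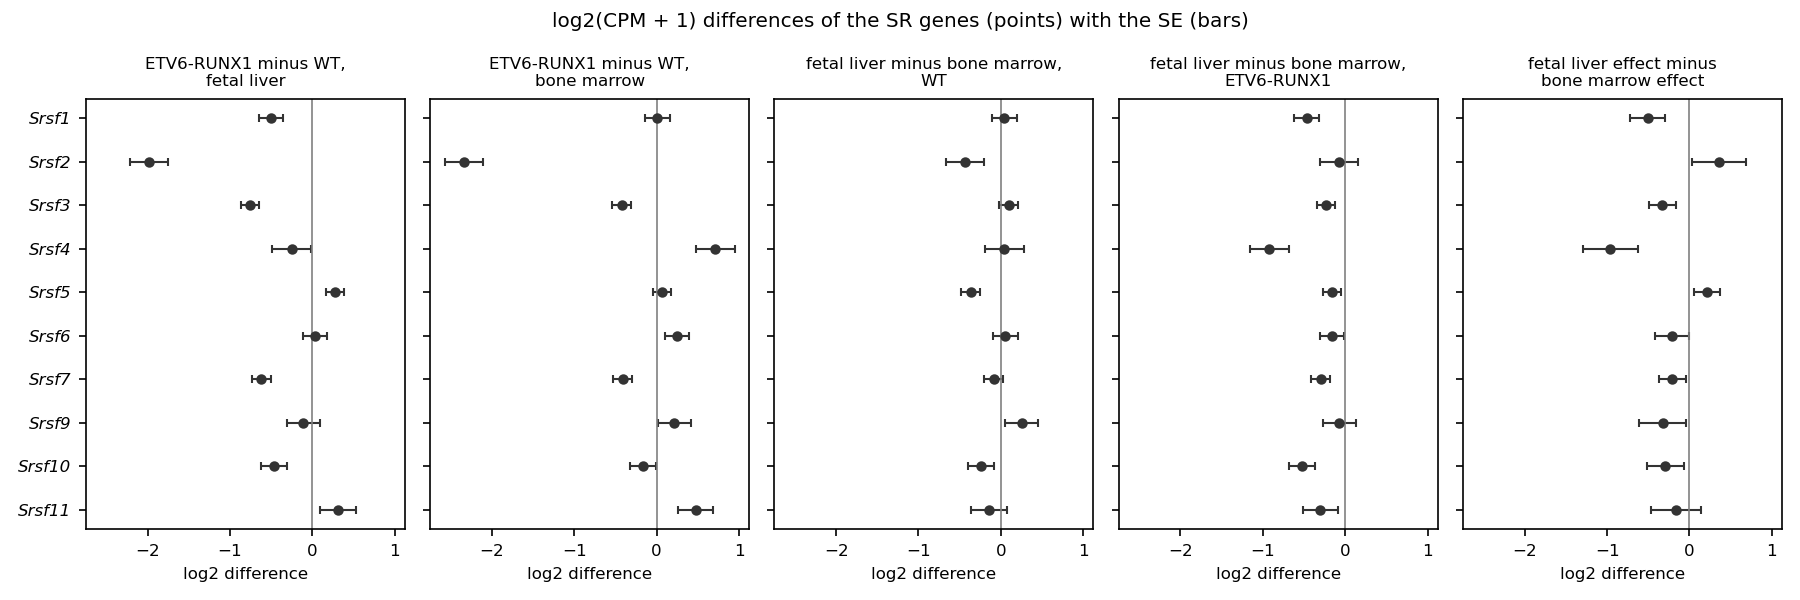
Difference on the log2(CPM + 1) scale for each SR gene (points) with its SE (bars) in the 5 comparisons: genotype in each source, source in each genotype, and the difference between the genotype effects. Srsf2 lies at -1.99 and -2.34 in the first pair of panels, and at -0.44, -0.08 and 0.36 in the other 3.

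The comparisons of sources were not used to choose the set. Among WT cells 1 of 10 members, Srsf5, was called, lower in fetal liver, beside 11.1% of all genes (3.38% higher and 7.77% lower). It was also the 1 member without overlap, beside 29.5% of genes, and the members' median of -0.02 stood beside -0.07 for all genes. Among ETV6-RUNX1 cells 3 members were called (Srsf1, Srsf4 and Srsf10), all lower in fetal liver, beside 28.6% of all genes (10.4% higher and 18.2% lower). The groups did not overlap for 5 members, beside 42.2% of genes, and the median of the members was -0.26 beside -0.16 for all genes. All 10 differences were below 0 with the deposited scaling, but 4 were above 0 with median of ratios, which moved the median of all genes to 0.00 and left Srsf4 as the only member called. That scaling called 2064 genes higher and 1451 lower, in place of 1484 and 2604. The count of 3 also became 1 without ETV6-RUNX1 bone marrow replicate 1 or ETV6-RUNX1 fetal liver replicate 1 or 2. The interaction, the difference between the genotype effects, called 0 of the 9 members other than Srsf2 by limma, edgeR and DESeq2, beside 9.19% of all genes by limma (5.56% higher and 3.62% lower), and 2 members (Srsf1 and Srsf4) had an unadjusted limma p under 0.05.

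The make-up of the family within a library does not depend on scaling between libraries. Shares are parts of a fixed whole, however, so a lower share of Srsf2 by itself raises the shares of the other members. Srsf2 held 10.4% ± 2.96 (SD, n = 3) of the summed CPM of the 10 genes in WT bone marrow and 2.38% ± 0.418 in ETV6-RUNX1 bone marrow. In fetal liver its share was 8.36% ± 1.47 in WT and 2.68% ± 0.260 in ETV6-RUNX1. Srsf5 went from 23.3% ± 1.14 to 29.3% ± 1.78 in bone marrow and from 20.1% ± 0.605 to 31.5% ± 1.00 in fetal liver. In CPM, Srsf5 overlapped between genotypes in bone marrow, with means of 680 ± 24.1 in WT and 712 ± 58.4 in ETV6-RUNX1. In fetal liver its means were 528 ± 40.1 and 637 ± 24.9 CPM, without overlap. The share of Srsf5 exceeded that of Srsf7 in every ETV6-RUNX1 library and in no WT library, and the CPM of Srsf7 was lower with the fusion in both sources. Srsf11 went from 4.78% ± 0.811 to 8.06% ± 1.74 in bone marrow and from 4.82% ± 0.900 to 7.72% ± 0.742 in fetal liver. Its CPM overlapped between genotypes in both sources. Without Srsf2, the other 9 genes summed to 2614 ± 97.6 CPM in WT and 2372 ± 159 in ETV6-RUNX1 bone marrow, and to 2412 ± 191 and 1969 ± 62.3 CPM in fetal liver. In such bulk libraries fewer cells of a type and less RNA per cell cannot be told apart.

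**Figure D3:**
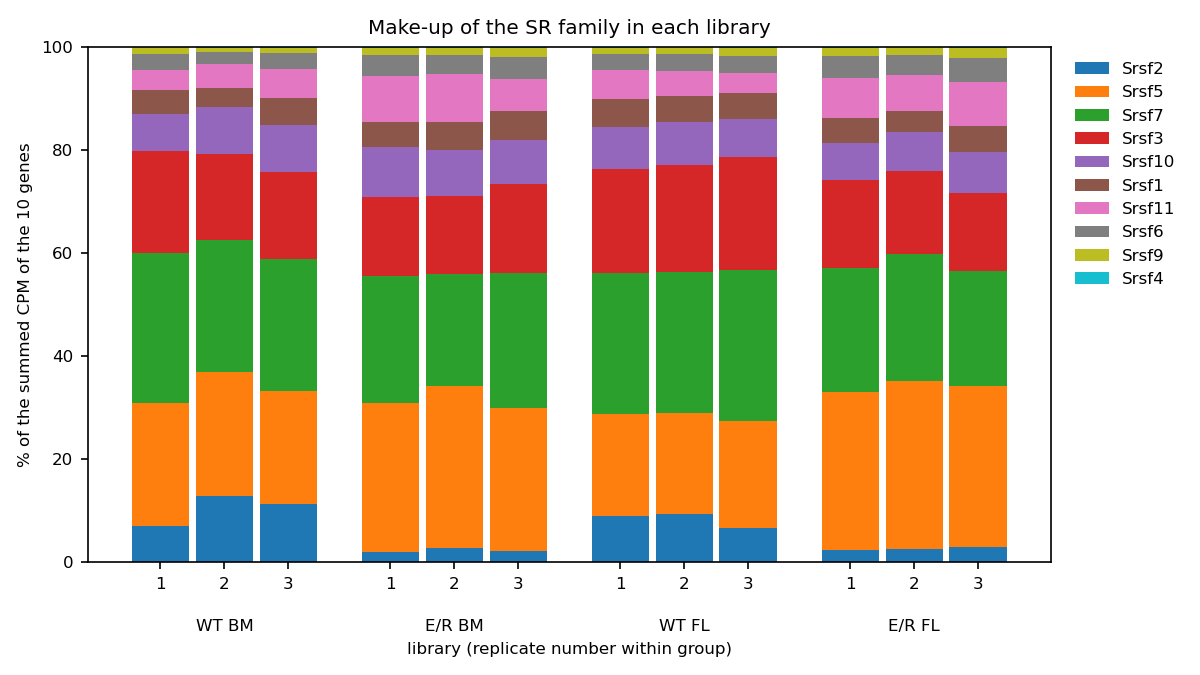
Share of each SR gene in the summed CPM of the 10 genes (vertical axis, %) in each library (bars, 3 per group). Srsf2 takes 6.67% to 12.8% in the WT libraries and 2.06% to 2.95% in the ETV6-RUNX1 (E/R) libraries, and Srsf4 is too low to be seen.

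Levels of different genes were compared per kb of exon, as CPM per kb. By the median over the 12 libraries the order was Srsf7 (186), Srsf5 (163), Srsf3 (56.2), Srsf2 (39.9), Srsf10 (28.5), Srsf1 (22.6), Srsf9 (20.9), Srsf6 (17.8), Srsf11 (16.8) and Srsf4 (0.806). The ranges over libraries of Srsf7 (133 to 226) and Srsf5 (123 to 189) overlapped each other, and those of Srsf5 and Srsf3 (40.2 to 75.95) did not. Srsf2 spanned 16.3 to 127 and so crossed its neighbours. In WT bone marrow its mean of 103 ± 32.7 CPM per kb was above the 65.3 ± 3.45 of Srsf3. In ETV6-RUNX1 bone marrow its 19.5 ± 2.89 was below the 48.6 ± 3.41 of Srsf3. The ranges of Srsf10, Srsf1, Srsf9, Srsf6 and Srsf11 each overlapped the next in order, and Srsf4 lay below all others in every library.

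Srsf2 shares its place in the genome with other genes. Mettl23, for a methyltransferase-like protein, overlaps it on the opposite strand with 460 shared exon bases, and Mfsd11, for a membrane transporter-like protein, with 288. Mettl23 was 51.2 ± 8.50 CPM in WT and 31.3 ± 5.30 in ETV6-RUNX1 bone marrow and 62.0 ± 5.94 and 26.3 ± 1.83 CPM in fetal liver. It fell in both sources, by 0.70 ± 0.16 in bone marrow (limma adjusted p = 0.0103) and 1.20 ± 0.16 in fetal liver (adjusted p = 5.49e-05). Mfsd11 rose in fetal liver from 25.3 ± 2.75 to 48.4 ± 5.21 CPM (log2 difference 0.91 ± 0.17, limma adjusted p = 0.000727) and was 28.9 ± 5.95 and 33.7 ± 4.36 CPM in bone marrow (0.23 ± 0.17, adjusted p = 0.37). How reads in the shared exon bases were assigned is not given in the sources used here. Srsf2 has 2958 exon bases, and Mettl23 held at most 68.9 CPM in any library, which does not bound the reads moved or lost through the overlap. The part of the overlap in the Srsf2 difference was not tested.

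Farther along the same side of chromosome 11, Jmjd6, for a protein hydroxylase that interacts with splicing factors, lies 6.45 kb from Srsf2. It fell in fetal liver by 0.53 ± 0.13 (limma adjusted p = 0.00556) and was lower in bone marrow by 0.32 ± 0.13, which did not pass (adjusted p = 0.103). BC018473, annotated as an antisense RNA 90.5 kb away and so uncertain where strand was ignored, was 0.155 to 0.870 CPM in the 6 WT libraries. It was 403, 709 and 342 CPM in ETV6-RUNX1 bone marrow and 229, 203 and 324 CPM in ETV6-RUNX1 fetal liver (log2 differences 8.33 ± 0.28 and 7.48 ± 0.28, limma adjusted p = 3.8e-10 and 4.29e-10). St6galnac2, for a sialyltransferase 155 kb away, rose by 5.23 ± 0.19 in bone marrow and 5.24 ± 0.19 in fetal liver (adjusted p = 4.96e-10 and 3.2e-10). St6galnac1, 74.4 kb away, had 0 reads in all 6 WT libraries, which allows up to 0.0465 to 0.0747 CPM by library. It was 1.76, 5.87 and 1.08 CPM in ETV6-RUNX1 bone marrow and 1.43, 1.38 and 1.56 CPM in fetal liver. Cygb, the cytoglobin gene 196 kb away, was 0.0167 to 0.133 CPM in the WT and 1.17 to 2.88 CPM in the ETV6-RUNX1 libraries. 1810032O08Rik, 174 kb away, was higher by 0.55 ± 0.18 in bone marrow (limma adjusted p = 0.049, held under 4 of 22 alternatives). In fetal liver it was higher by 0.44 ± 0.18, which did not pass (adjusted p = 0.0675). Gm11735 and Mxra7, too low to be tested, had higher levels with the fusion without overlap within either source. Within 200 kb of Srsf2, then, the fusion libraries were low for Srsf2 and Mettl23 and high for BC018473, St6galnac2, St6galnac1 and Cygb, which were at most 1.21 CPM in WT, and what links these differences was not tested.

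Within 1 Mb on either side, a width chosen after seeing the values, 50 genes other than Srsf2 were tested. With the fusion, 15 of these passed as higher and 14 as lower in fetal liver, and 13 as higher and 5 as lower in bone marrow. That made 58% and 36% of the window called, beside 43.1% (24.8% higher, 18.3% lower) and 19.4% (14.4% higher, 4.93% lower) of all genes. The genes with a log2 difference above 2 were Itgb4, St6galnac2 and BC018473 in both sources. The only genes under -1 in bone marrow were Smim5 (-2.42 ± 0.31) and Smim6 (-2.99 ± 0.22), neighbours of each other at the far edge, 948 and 938 kb from Srsf2 between midpoints. They were -2.33 ± 0.31 and -2.78 ± 0.22 in fetal liver.

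**Figure D4:**
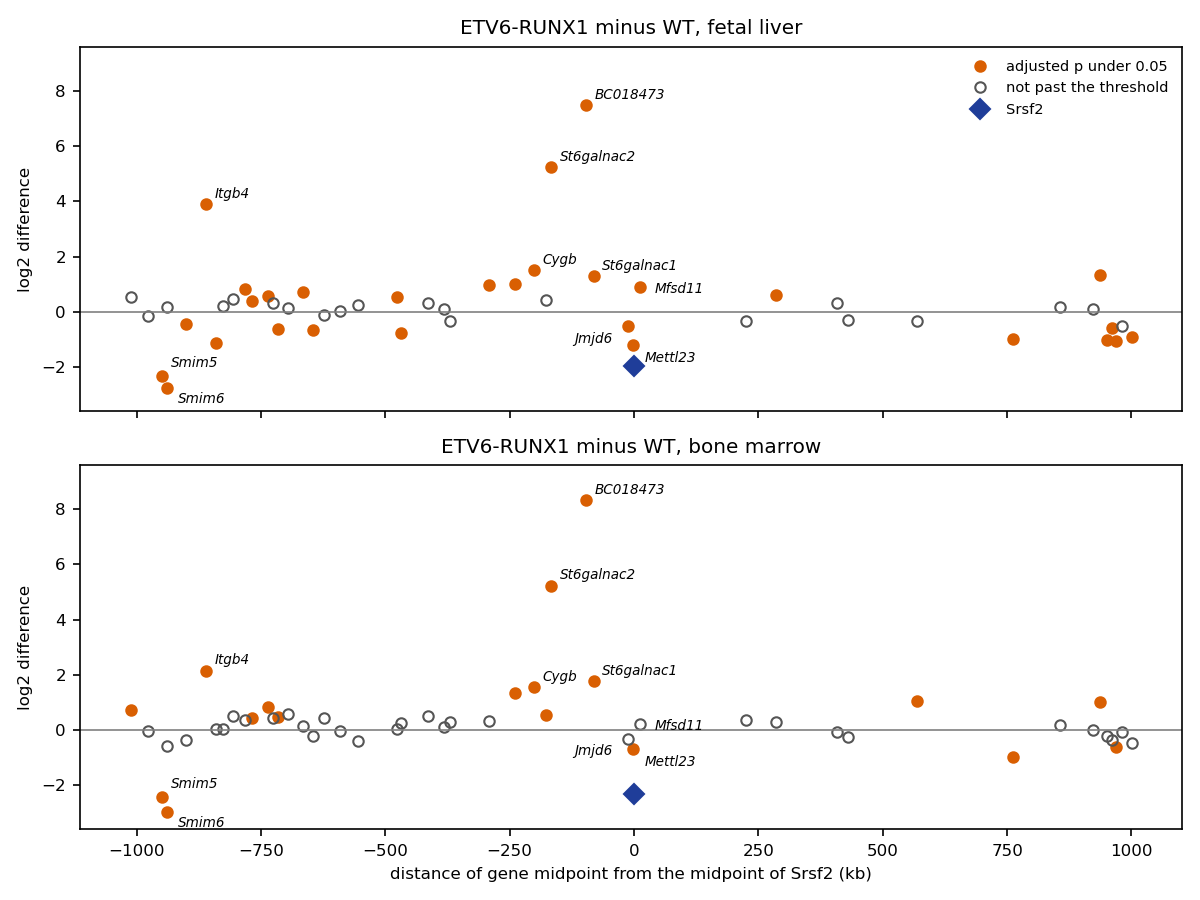
Log2 difference between genotypes (vertical axis) of the tested genes within 1 Mb of Srsf2 against the distance between gene midpoints in kb, in fetal liver (upper panel) and bone marrow (lower panel). Filled points passed an adjusted p under 0.05, and Srsf2 is drawn as a diamond at -1.99 and -2.34. The largest positive differences, BC018473 and St6galnac2, lie on 1 side at 95.7 and 166 kb from Srsf2 between midpoints.

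The genes whose levels followed Srsf2 most closely were sought by Pearson correlation over the 12 libraries on the log2(CPM + 1) scale. The 5 highest were Med1 (r = 0.979), Myo1f (0.974), Cox11 (0.960), Slc5a6 (0.952) and Hnf4a (0.947). The libraries form groups by genotype, so these values describe mainly that shared split. Med1, a Mediator subunit, was 389 ± 32.0 and 333 ± 26.2 CPM in WT bone marrow and fetal liver and 105 ± 14.6 and 99.1 ± 3.41 CPM in the ETV6-RUNX1 groups. Hnf4a and Cox11 were low, at no more than 2.86 and 5.73 CPM in any library.

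Other genes of the splicing pathway were taken as 6 lists and are counted beside the members. Among 26 other RS-domain and SR-related proteins tested, 6 rose and 3 fell in ETV6-RUNX1 fetal liver and 3 rose and 1 fell in bone marrow, with medians of 0.12 and 0.15 beside 0.08 and 0.13 for all genes. The shares called, 34.6% and 15.4%, were below the 43.1% and 19.4% of all genes, which are the background for each list that follows. Median of ratios gave 3 higher and 6 lower in fetal liver, and the fetal liver count of 9 fell to 5 without WT replicate 3 or any 1 of the ETV6-RUNX1 replicates of that source. Rsrp1, for an arginine- and serine-rich protein, rose from 131 to 249 CPM in fetal liver (0.94 ± 0.16, limma adjusted p = 0.000411) and from 163 to 276 CPM in bone marrow (0.74 ± 0.16, adjusted p = 0.00721). Rnps1, which joins splicing to the exon junction complex, fell by 0.70 ± 0.11 in fetal liver (adjusted p = 0.000238) and by 0.42 ± 0.11 in bone marrow (adjusted p = 0.0204, lost at 0.0508 to 0.0825 without WT bone marrow replicate 1 or ETV6-RUNX1 bone marrow replicate 1 or 2). Tra2b, a splicing activator, fell in fetal liver from 354 to 225 CPM (0.65 ± 0.14 lower, adjusted p = 0.00168), and Luc7l2, a U1-associated protein, rose there by 0.60 ± 0.14 (adjusted p = 0.00319). The count in bone marrow was 1 without WT bone marrow replicate 1 or ETV6-RUNX1 bone marrow replicate 1 or 2, and 2 without WT bone marrow replicate 2.

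Of 14 kinases, phosphatases and importins that act on SR proteins, 4 rose and 1 fell in fetal liver and 1 rose and 2 fell in bone marrow, with medians of 0.07 and 0.05 beside 0.08 and 0.13 for all genes. At 35.7% and 21.4%, the shares called lay below the background of 43.1% in fetal liver and near that of 19.4% in bone marrow. Clk1, a nuclear kinase of the arginine-serine domain, rose in fetal liver from 117 ± 13.1 to 224 ± 11.8 CPM (0.93 ± 0.15, limma adjusted p = 0.000214). Srpk2, a cytoplasmic SR kinase, rose from 74.0 ± 9.54 to 129 ± 4.49 CPM in bone marrow (0.80 ± 0.14, adjusted p = 0.00229) and from 66.3 ± 6.13 to 93.6 ± 13.0 CPM in fetal liver (0.49 ± 0.14, adjusted p = 0.0133). The fetal liver call of Srpk2 was lost without WT replicate 3 or ETV6-RUNX1 replicate 2 or 3 of that source (adjusted p 0.0504 to 0.0654). Its relative Srpk1 fell in fetal liver by 0.49 ± 0.14 (adjusted p = 0.0102). In bone marrow Clk3 fell by 0.44 ± 0.12 (adjusted p = 0.0214) and Ppp1ca, a phosphatase subunit, by 0.38 ± 0.12 (adjusted p = 0.0384). Both bone marrow calls were lost without ETV6-RUNX1 bone marrow replicate 1 or 2 or WT bone marrow replicate 2, and that of Ppp1ca also without WT bone marrow replicate 1 or 3, WT fetal liver replicate 2 or ETV6-RUNX1 fetal liver replicate 1. The fetal liver count of 5 became 2 without WT replicate 3 and 3 without ETV6-RUNX1 replicate 2 or 3 of fetal liver, and the bone marrow count of 3 became 1 without WT replicate 2 or ETV6-RUNX1 replicate 1 or 2 and 5 without ETV6-RUNX1 replicate 3 of bone marrow.

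The hnRNP and PTB proteins often oppose SR proteins at exons. Of 26 tested, 3 rose and 13 fell in fetal liver (median -0.35) and 1 rose and 5 fell in bone marrow (median -0.00). In fetal liver 61.5% of the list was called beside 43.1% of all genes, of which 18.3% were lower, and in bone marrow 23.1% was, near the 19.4% of all genes. Hnrnpa1, which antagonises Srsf1 in the choice of 5′ splice sites, fell in fetal liver from 1170.0 ± 57.8 to 494 ± 49.1 CPM (1.25 ± 0.12 lower, limma adjusted p = 1.71e-06). In bone marrow it fell from 1040.2 ± 56.2 to 679 ± 41.6 CPM (0.62 ± 0.12 lower, adjusted p = 0.00316). Hnrnpc fell by 0.68 ± 0.11 and 0.45 ± 0.11 in fetal liver and bone marrow (adjusted p = 0.00016 and 0.0103). Ptbp3, a PTB relative of blood cells, rose in fetal liver from 122 to 212 CPM (0.80 ± 0.20, adjusted p = 0.00499). The fetal liver count of 16 became 10 without WT replicate 2 of that source, and the bone marrow count of 6 became 3 without WT replicate 3 or ETV6-RUNX1 replicate 1 of bone marrow and 2 without ETV6-RUNX1 replicate 2.

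Among 25 components of U1, U2 and splice site recognition, with which SR proteins work, 1 rose and 13 fell in fetal liver (median -0.41), and 4 rose and 0 fell in bone marrow (median 0.00). The list was called at 56% in fetal liver beside 43.1% of all genes (18.3% lower), and at 16% in bone marrow, which is near the background of 19.4% (14.4% higher). By scaling, the bone marrow split changed to 3 higher and 3 lower with median of ratios. Snrpa, the U1 A protein, fell in fetal liver from 188 to 100.2 CPM (0.90 ± 0.13 lower, limma adjusted p = 8.64e-05), and Sf3b5 from 240.3 to 105 CPM (1.17 ± 0.17 lower, adjusted p = 0.000115). Sf3a2 rose in bone marrow from 15.6 to 42.5 CPM (1.40 ± 0.23, adjusted p = 0.00133), and Zrsr1, a U2AF1 relative, from 6.38 to 17.1 CPM (1.29 ± 0.22, adjusted p = 0.00152). The bone marrow count was 2 without ETV6-RUNX1 replicate 2.

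All 7 Sm core genes tested fell in fetal liver (median -1.06, from -1.18 to -0.80), a count that held under every alternative, beside 18.3% of all genes called lower. In bone marrow 1 of the 7 fell (median -0.33), Snrpd3, which was -0.48 ± 0.16 there (limma adjusted p = 0.0437, lost without any 1 library but WT replicate 2 and ETV6-RUNX1 replicate 3 of bone marrow, at 0.0507 to 0.152) and -1.18 ± 0.16 in fetal liver (adjusted p = 4.3e-05). Without ETV6-RUNX1 bone marrow replicate 3 the bone marrow count of Sm genes was 2. Nonsense-mediated decay and the exon junction complex act on the transcripts that SR genes make with their poison exons. Of 18 such genes, 2 rose and 6 fell in fetal liver (median 0.05) and 4 rose and 1 fell in bone marrow (median 0.28). The share called in fetal liver, 44.4%, was at the background of 43.1%, and that in bone marrow was 27.8% beside 19.4%. Eif4a3, the anchor of the exon junction complex, fell by 0.99 ± 0.13 in fetal liver (adjusted p = 4.2e-05) and by 0.55 ± 0.13 in bone marrow (adjusted p = 0.0113, and 0.0567 without ETV6-RUNX1 bone marrow replicate 2). The decay factor Smg5 rose in both sources, by 0.59 ± 0.14 and 0.69 ± 0.14 (adjusted p = 0.00335 and 0.00422), and the kinase Smg1 rose in fetal liver by 0.80 ± 0.20 (adjusted p = 0.00471). Without ETV6-RUNX1 bone marrow replicate 3 the bone marrow count was 8 in place of 5. Values per gene do not separate transcripts with poison exons from productive ones.

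**Figure D5:**
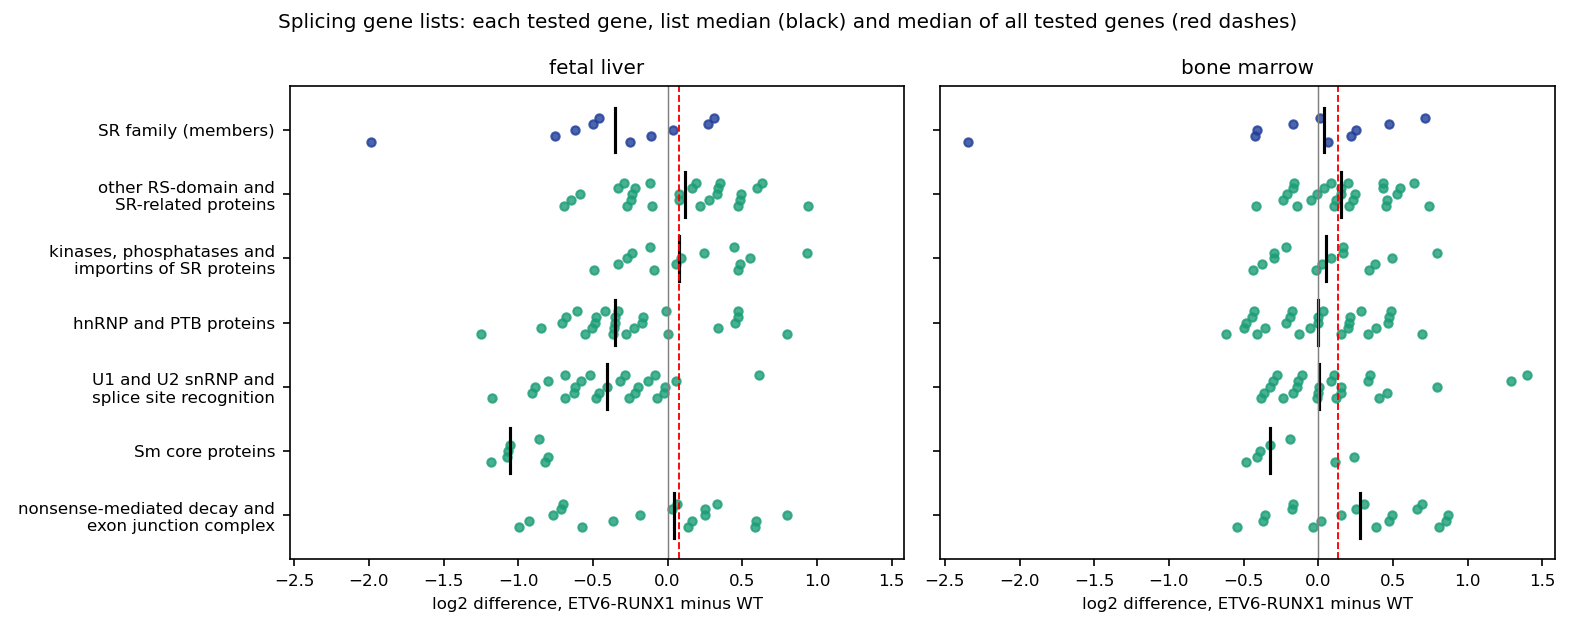
Log2 difference between genotypes (horizontal axes) of each tested gene in the SR family and 6 lists of splicing genes, in fetal liver (left) and bone marrow (right). Black bars are list medians and the red dashed line is the median of all tested genes, 0.08 in fetal liver and 0.13 in bone marrow. In fetal liver the Sm core genes all lie left of 0, with a median of -1.06.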

How the data were processed

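Per the labels' protocols, a stranded kit turned total RNA into libraries, whose fragments were read from both ends. Per the submitters' processing notes, which give no roles or order, the tools were bcl2fastq, STAR 2.5.1a, Subread, featureCounts 1.4.6-p5, Salmon 0.8.2, edgeR and limma on build GRCm38. Neither the annotation nor whether counting used strand is given in the sources used here. The authors deposited gene-level CPM values for all 12 libraries in 1 table. Library by library, 100% of the values were whole multiples of the value of 1 read (within 0.01 reads), which gave the reads and the library totals of 32.3 to 64.5 M reads. Floors of 3 reads cover counting error only. Of 40757 entries, 276 repeated a gene and were kept once.

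Positions, biotypes and exon bases came from GENCODE M21 on GRCm38, which held 99.4% of the gene IDs. Promoter sequences came from RefSeq on GRCm38.p6. Genes that reached 1 CPM in 3 or more libraries were kept (14271), their values were taken to log2(CPM + 1), and limma 3.58.1 in R 4.3.3 (lmFit, and eBayes with a mean-variance trend, two-sided) fitted the 4 groups of 3 with 8 residual degrees of freedom. In the report, called means a Benjamini-Hochberg adjusted p under 0.05 over all genes tested. Replicates differed by more than sampling noise, so each library counted once. The fit was tested on simulated data.

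The members and lists were chosen with earlier results of these data known. Named were all members, the tested genes within 200 kb of Srsf2 with Gm11735 and Mxra7, the 5 genes most like it, and genes of the lists. From each list and genotype comparison these were up to 2 genes per direction with the smallest p, at least 5 CPM in a group and no overlap. Some of the genes so selected are given only in the counts. Alternatives were a pseudocount of 0.1, no filter on low values, a mean of at least 5 CPM, quantile normalization, scaling by median of ratios, a replicate block, the processed pseudogene share as a covariate, the 6 libraries compared alone, edgeR 4.0.16 and DESeq2 1.42.0 on the recovered reads, and leaving out each library.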

Additional observations from a re-analysis of the deposited data

Results flagged for a closer look

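No SR gene met a rule for a closer look. Of the other splicing genes named, 7 had a genotype difference that itself differed between the sources by limma's test of the interaction, given here as the fetal liver difference minus the bone marrow difference on the log2 scale. Of these, 6 were negative: Sf3a2 at -1.80 (adjusted p = 0.00334), Snrpb at -1.10 (0.00182), Snrpa at -1.06 (0.00285), Sf3b5 at -0.90 (0.0359), Smg9 at -0.84 (0.0434) and Hnrnpa1 at -0.63 (0.0289). Clk3 was positive at 0.68 (adjusted p = 0.0235). Over all genes tested, 9.19% were called for the interaction. The 7 come from genes named for a small genotype p without overlap in a source. Such a choice favours effects that differ between sources, so nothing is read from their number. Sf3a2, part of the U2 particle, was 27.9 ± 2.15 CPM in WT and 21.4 ± 6.84 in ETV6-RUNX1 fetal liver but 15.6 ± 3.87 and 42.5 ± 8.79 CPM in bone marrow. Snrpb, an Sm core gene, was 525 ± 44.1 and 290.1 ± 42.2 CPM in fetal liver and 364 ± 6.89 and 429 ± 22.3 CPM in bone marrow. Over 21 alternatives the interaction of Sf3a2 and of Snrpb was called in all 21, that of Snrpa in 20, Clk3 in 14, Hnrnpa1 in 10, Sf3b5 in 8 and Smg9 in 6.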

How the results depend on the processing

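The differences of the 10 SR genes were recomputed under 22 alternatives (21 for the interaction), which gave 1085 values. Of these, 1011 kept their side of the threshold, 67 lost a call and 7 gained one. With a call in either fit, 0 reversed direction. Values not called in either fit were counted as kept even where their direction changed. For Srsf1 and genotype in bone marrow, for example, the difference was 0.01 and the alternatives ran from -0.16 to 0.16. For the named genes that are not members, 1488 of 1621 values were kept by the same rule, 123 lost a call and 10 gained one. Of the SR genes called for genotype in bone marrow (4), quantile normalization left 2 and the 6 libraries compared alone left 1. The single SR call between WT sources became 0 with no filter on low values, median of ratios, quantile normalization, the replicate block, the 6 libraries alone, edgeR and DESeq2. The 3 SR calls between ETV6-RUNX1 sources became 1 with no filter, median of ratios, edgeR and DESeq2, and 5 with quantile normalization. Leaving out 1 library gave 3 to 5 SR calls for genotype in fetal liver, 1 to 5 in bone marrow, 0 to 2 between WT sources, 1 to 3 between ETV6-RUNX1 sources and 0 to 1 for the interaction. The cause was not tested.

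Among the other lists in bone marrow, the processed pseudogene covariate gave 8 RS-domain proteins (from 4), 6 kinases and partners (from 3), 7 U1 and U2 genes (from 4), 5 Sm genes (from 1) and 9 decay genes (from 5), and 3 fetal liver kinases (from 5). The 6 libraries alone gave 1 RS-domain protein, 1 kinase, 2 hnRNP genes (from 6) and 0 Sm genes. Quantile normalization gave 2 RS-domain and 3 hnRNP genes, no filter gave 3 hnRNP and 0 Sm genes, and DESeq2 gave 5 kinases and 7 U1 and U2 genes. With 1 library left out, counts in fetal liver and bone marrow were 5 to 10 and 1 to 5 for RS-domain proteins, 2 to 7 and 1 to 5 for kinases and partners, 10 to 16 and 2 to 8 for hnRNP genes, 10 to 15 and 2 to 5 for U1 and U2 genes, 7 to 7 and 0 to 2 for Sm genes and 8 to 10 and 4 to 8 for decay genes. Counts over all genes moved by over 1.5 times in 3 comparisons. For genotype in bone marrow (2763) they were 1601 with the 6 libraries alone and 1520 without ETV6-RUNX1 replicate 2. Between WT sources (1591) they were 868 to 2781 with 1 library left out. For the interaction (1311) they were 767 with no filter, 547 with the covariate and 731 to 2332 with 1 library left out.

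Replicate numbers did not pair the libraries: over 18 same-numbered pairs the deviations from group means had a median correlation of -0.04, 7 pairs were over 0.1, and 1 of 12 libraries correlated best with its own number. With the replicate block 5838 genes were called for genotype in fetal liver and 2334 in bone marrow, 1425 and 3739 between WT and ETV6-RUNX1 sources and 1033 for the interaction. The block called 0 SR genes between WT sources in place of 1, 3 in place of 4 for genotype in bone marrow, and as many as without it in the other comparisons. Depth limits Srsf4 most, with 69 to 225 reads in a library.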

Other observations

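Differences between sources were also counted for the splicing gene lists. Among ETV6-RUNX1 cells, 10 of 25 U1 and U2 genes, 9 of 26 hnRNP and PTB genes, 5 of 26 RS-domain and SR-related genes, 5 of 18 decay and exon junction genes and 1 of 7 Sm genes were called, all lower in fetal liver than in bone marrow, beside 28.6% of all genes (18.2% lower). Of the 14 kinases and partners, 2 were called higher and 2 lower. With scaling by median of ratios the same lists had 4, 2, 0, 3 and 0 genes called lower and none called higher, and the kinases and partners 2 higher and 0 lower. Among WT cells 2 of the 25 U1 and U2 genes and 1 of the 7 Sm genes were called, all higher in fetal liver. Of the 84 genes in the other 4 lists limma and edgeR called 0 and DESeq2 called 1, while 12 had an unadjusted limma p under 0.05. The medians of the U1 and U2 list were 0.16 in WT and -0.30 in ETV6-RUNX1 cells, beside -0.07 and -0.16 for all genes. For the Sm core genes they were 0.38 and -0.36.

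In the test of the difference between genotype effects, 7 of the 25 U1 and U2 genes were called, all with the lower value in fetal liver, beside 9.19% of all genes. The list median was -0.45 beside -0.05. All 7 Sm genes had values below 0 (median -0.70), of which 1, Snrpb, was called. The SR members other than Srsf2 had a median of -0.29 and 0 calls.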
